A study of Homo sapiens with 8 samples.

Results

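The genes described here are 10 AP-1 and immediate early genes. They are the AP-1 subunit genes JUN, JUNB, JUND, FOS, FOSL1 and FOSL2, the zinc finger factor gene EGR1, the bZIP factor gene ATF3 and the response genes IER2 and IER3. They were taken by symbol from a table of 52576 genes, in which each symbol had 1 row, and all 10 were among the 13979 tested genes, those averaging 1 RPKM or more over the libraries. RPKM scales reads by the length of the gene model and the depth of the library, so levels can be compared between genes per unit of length.

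All 8 libraries came from NCI-H2009, an established line of human lung adenocarcinoma cells, and every group, the controls included, carried dCas9-KRAB. This fusion of a Cas9 that does not cut DNA with the KRAB repressor domain is brought to a site by a guide RNA. Of the 4 groups of 2 libraries, 2 had been transfected with a guide to the enhancer e3 (guide 1 and guide 2), 1 with a guide lacking a target in the genome, and 1 with no guide. The enhancer e3 is studied as a control element of MYC. MYC had 39.6 ± 3.87 RPKM in the e3 libraries and 81.6 ± 9.20 RPKM in the control libraries (SD, n = 4 each). The labels give neither the share of cells that took up a guide nor the time after transfection, nor do they name separate cultures for the libraries of a group. A p-value here sets a difference between groups against the spread of these libraries, and that spread may be technical only. In bulk RNA, fewer cells of a kind and less RNA per cell cannot be told apart.

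AP-1 is a dimer, often of a JUN protein with a FOS or ATF protein, joined through their leucine zippers, that binds DNA at the sequence TGANTCA and related sites. Growth factors and stress act through ERK, JNK and p38 kinases to switch on many of its genes within minutes without new protein synthesis. Such genes are called immediate early genes. FOS and FOSB proteins carry a strong activation domain that the FOSL1 and FOSL2 proteins lack. In epithelial tumours FOSL1 is often abundant, and AP-1 is known for driving proteases, adhesion molecules and cytokines.

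The steps between low values gave whole reads, to within 0.03 reads, in 13978 of the 13979 tested genes, and so the depth. It lay between 3875080 and 5754470 reads per library. Behind each library's value of ATF3 stood 26 to 142 reads, and behind each value of the other 9 genes 226 to 4139 reads. Because 12.4% of all genes were called between the controls, each control is also used alone. Of 9 markers of lung adenocarcinoma and simple epithelium 8 averaged 1 RPKM or more, and the summed level was 3088 to 3196 RPKM in the e3 libraries, 2699 to 2847 RPKM with the non-targeting guide and 3408 to 3517 RPKM with no guide. NAPSA, a marker of lung adenocarcinoma, lay between 0.306 and 1.30 RPKM. Of 6 fibroblast markers, COL3A1, DCN and LUM were listed at 0 in every library, and the sum, mostly COL1A1, was 6.15 to 7.18 RPKM in the e3 libraries, 5.06 to 5.76 RPKM with the non-targeting guide and 3.33 to 4.56 RPKM with no guide. These sums fall in the same order as JUN and FOSL2, and their part in the results was not tested. Of 6 leukocyte markers, CD3E was listed at 0 and PTPRC reached 0.0469 RPKM, while CD68 and CD79A carried a sum of 45.4 to 57.3 RPKM in the e3 libraries, 34.9 to 38.1 RPKM with the non-targeting guide and 38.2 to 40.3 RPKM with no guide. The 3 endothelial markers measured summed to 0.503 RPKM or less.

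Promoters of 8 of the 10 genes were found in RefSeq (GRCh38.p14). The 250 bases before the start of transcription were searched on both strands for short motifs. Only the first promoter entry of each gene was used, ATF3 included. Any other start of the same gene was not searched, and the start used in these cells is not known. The 5 sequences below are shown because they hold the best known response elements of the family, except for FOS and ATF3. Of the 10 genes, FOS alone was highest with no guide, and ATF3 had the lowest level. Each sequence runs 5′ to 3′ on the gene's own strand, with motif matches in capitals. For JUN (chr1:58784048-58784297, minus strand) the capitals mark TGACATCA at -67 to -60, a variant AP-1 site that was added to the search after the sequences had been read. For JUND (chr19:18281623-18281872, minus strand) they mark the cyclic AMP response element TGACGTCA at -200 to -193, and for FOS (chr14:75278578-75278827, plus strand) the TATA box at -33 to -28. For EGR1 (chr5:138465229-138465478, plus strand) they mark 2 CArG boxes, the letters of a serum response element core, at -105 to -96 and -83 to -74, and a site of the EGR type at -198 to -190. For ATF3 (chr1:212565157-212565406, plus strand) they mark TGACATCA at -123 to -116.
JUN: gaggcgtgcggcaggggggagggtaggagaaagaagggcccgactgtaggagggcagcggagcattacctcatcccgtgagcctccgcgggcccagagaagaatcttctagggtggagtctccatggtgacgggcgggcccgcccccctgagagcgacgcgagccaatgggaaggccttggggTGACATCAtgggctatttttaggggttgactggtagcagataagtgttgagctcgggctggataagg
JUND: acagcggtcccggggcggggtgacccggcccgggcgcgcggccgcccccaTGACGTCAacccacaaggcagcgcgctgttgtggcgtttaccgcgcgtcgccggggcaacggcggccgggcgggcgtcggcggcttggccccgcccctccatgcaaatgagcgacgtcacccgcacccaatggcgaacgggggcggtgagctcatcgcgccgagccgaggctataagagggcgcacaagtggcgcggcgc
FOS: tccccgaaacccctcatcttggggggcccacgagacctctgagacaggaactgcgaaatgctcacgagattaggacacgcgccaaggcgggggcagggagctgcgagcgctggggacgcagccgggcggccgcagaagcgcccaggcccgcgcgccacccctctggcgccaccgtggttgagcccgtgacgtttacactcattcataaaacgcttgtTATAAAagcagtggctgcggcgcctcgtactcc
EGR1: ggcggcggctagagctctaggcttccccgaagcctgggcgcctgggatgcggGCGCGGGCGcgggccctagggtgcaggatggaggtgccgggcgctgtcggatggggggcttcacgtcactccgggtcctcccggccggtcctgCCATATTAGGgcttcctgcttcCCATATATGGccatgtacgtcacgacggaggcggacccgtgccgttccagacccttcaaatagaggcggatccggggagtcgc
ATF3: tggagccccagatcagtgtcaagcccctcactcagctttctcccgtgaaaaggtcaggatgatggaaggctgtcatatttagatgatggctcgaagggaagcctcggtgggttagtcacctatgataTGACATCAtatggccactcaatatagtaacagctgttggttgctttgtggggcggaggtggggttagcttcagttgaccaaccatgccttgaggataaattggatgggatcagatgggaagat

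The motifs were uncommon among the 35116 promoters of the same length. TGACGTCA was in 1.65% of them, a CArG box in 1.16%, the EGR site GCGNGGGCG in 8.41% and the TATA box TATAAA in 10.7%. TGACATCA was in 2.37%, but it was picked after these sequences had been read, so its rarity lends its matches no weight. The AP-1 site TGANTCA itself, found in 6.57% of all promoters, was in none of the 8. JUNB held a TATA box, and FOSL2 and IER2 held none of the motifs within this window. Sites further away were not looked for, and a match describes letters and not binding.

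Within the JUN family, JUN stood out by the distance between the groups. It encodes a strong activating subunit of AP-1 that also binds its own promoter. JUN (ENSG00000177606.5, chromosome 1) had 124.3 and 122.9 RPKM with guide 1, 133.9 and 145.3 RPKM with guide 2, 100.8 and 97.7 RPKM with the non-targeting guide, and 48.1 and 47.7 RPKM with no guide. All 4 e3 libraries were above both non-targeting libraries, and these were above both no-guide libraries. The guide 2 libraries lay above the guide 1 libraries by less than their own spread. The e3 mean of 131.6 ± 10.4 RPKM (SD, n = 4) was 1.33 times that of the non-targeting guide and 2.75 times that of no guide, and the non-targeting mean was 2.07 times that of no guide.

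JUNB, a weaker activator that in many settings restrains JUN, separated the libraries without a guide from the rest. JUNB (ENSG00000171223.4, chromosome 19) had 195.9 and 180.4 RPKM with guide 1, 191.0 and 189.7 RPKM with guide 2, 190.4 and 188.2 RPKM with the non-targeting guide, and 130.0 and 131.2 RPKM with no guide. The 6 libraries with any guide overlapped one another. HOOK2, on the opposite strand, overlaps JUNB in the GENCODE 29 annotation and ran the other way, with 19.8 and 17.7 RPKM on average with guides 1 and 2, 17.6 RPKM with the non-targeting guide and 30.9 RPKM with no guide. The strand setting of the read counting is not given in the sources used here, so reads of the overlap cannot be assigned.

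JUND, the subunit that most resting cells hold at a steady level, varied least in this family. JUND (ENSG00000130522.3, chromosome 19) had 63.4 and 62.1 RPKM with guide 1, 55.5 and 52.4 RPKM with guide 2, 54.8 and 51.6 RPKM with the non-targeting guide, and 50.2 and 43.7 RPKM with no guide. Guide 1 was above all other libraries, guide 2 overlapped the non-targeting guide, and the non-targeting guide was above no guide by less than the spread of the no-guide libraries.

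In the FOS family the largest member by level was FOSL1, the subunit known as FRA1 that is associated with invasive carcinoma cells. FOSL1 (ENSG00000175592.3, chromosome 11) had 160.3 and 159.0 RPKM with guide 1, 163.0 and 165.0 RPKM with guide 2, 195.8 and 204.7 RPKM with the non-targeting guide, and 139.6 and 141.0 RPKM with no guide. It was thus highest with the non-targeting guide, and no group overlapped another. The share of all genes in which no group overlaps another was not counted. Between the e3 and the non-targeting libraries alone, 32.3% of all genes did not overlap. The e3 mean of 161.8 ± 2.70 RPKM (SD, n = 4) was 0.808 of the non-targeting mean and 1.153 times the no-guide mean.

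FOSL2, which encodes the related subunit FRA2, ran in another order. FOSL2 (ENSG00000075426.7, chromosome 2) had 96.5 and 93.8 RPKM with guide 1, 100.5 and 99.4 RPKM with guide 2, 76.9 and 79.1 RPKM with the non-targeting guide, and 50.9 and 59.2 RPKM with no guide. The 4 groups did not overlap, and each gap between neighbours was wider than the spread within them. As for FOSL1, the share of all genes with such groups was not counted. The e3 mean of 97.5 ± 3.01 RPKM (SD, n = 4) was 1.25 times that of the non-targeting guide and 1.77 times that of no guide.

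FOS, the classical serum-induced partner of JUN, was the only one of the 10 genes that was highest with no guide. FOS (ENSG00000170345.4, chromosome 14) had 19.8 and 22.5 RPKM with guide 1, 16.5 and 16.3 RPKM with guide 2, 17.1 and 15.2 RPKM with the non-targeting guide, and 31.1 and 31.8 RPKM with no guide. Guide 2 overlapped the non-targeting guide, and guide 1 lay above both and below no guide. FOSB (ENSG00000125740.7), the fourth gene of the family, had 11.8 and 11.2 RPKM with guide 1, 9.82 and 13.3 RPKM with guide 2, 9.87 and 11.1 RPKM with the non-targeting guide, and 16.4 and 15.3 RPKM with no guide. Its no-guide libraries too lay above all others.

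**Figure D1:**
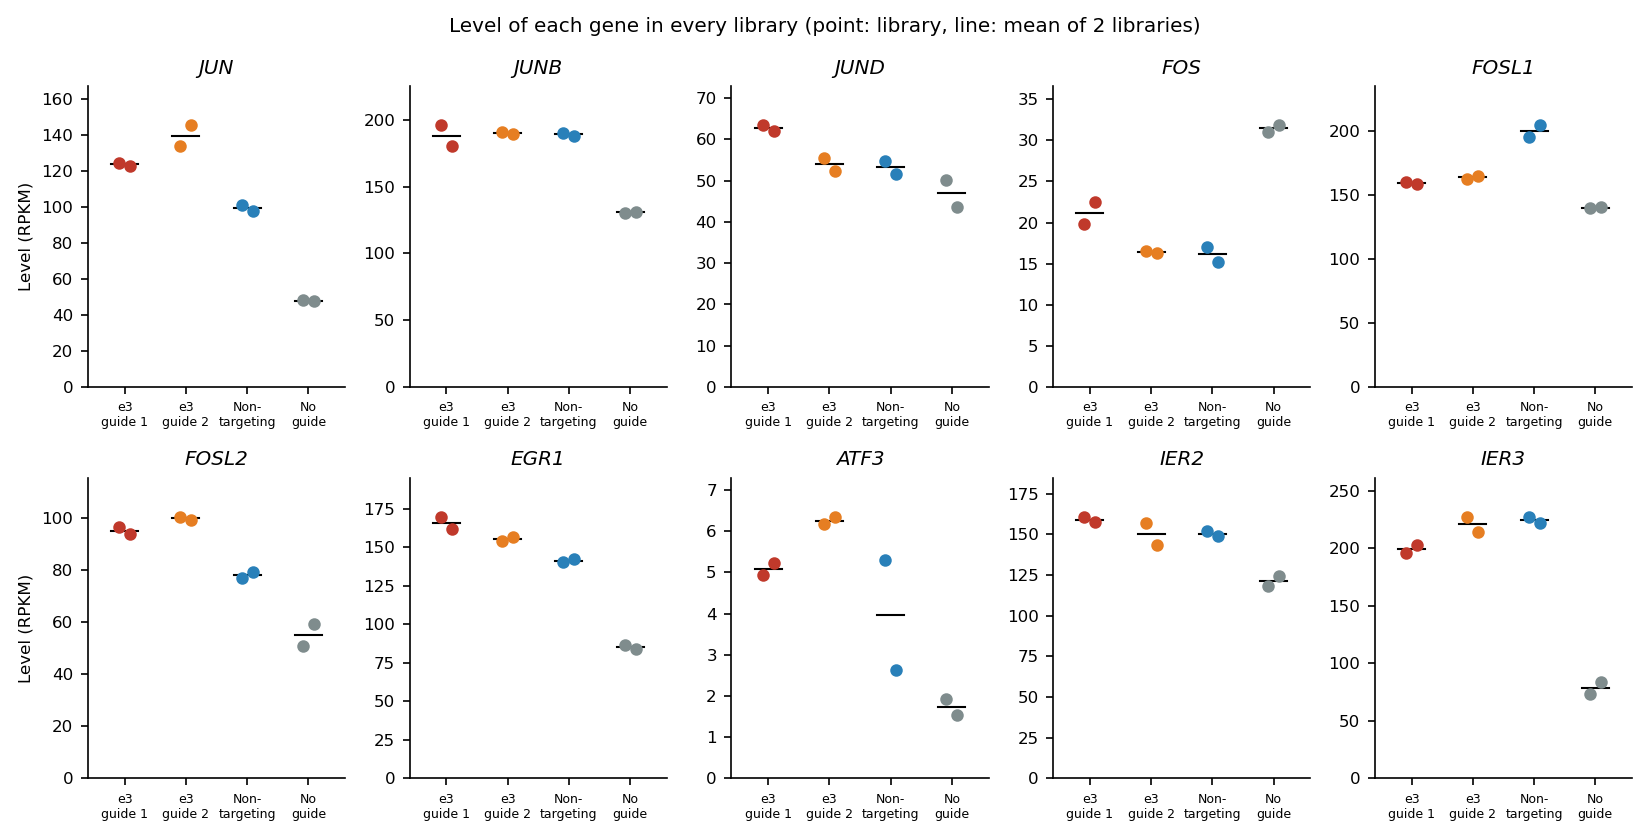
Level of each of the 10 genes in RPKM (vertical axes, from 0, with a scale of their own) in every library, by group; points are libraries and lines are means of 2 libraries. JUN and FOSL2 step down across the e3 guides, the non-targeting guide and no guide, FOSL1 is highest with the non-targeting guide at 195.8 and 204.7 RPKM, and FOS is highest with no guide at 31.1 and 31.8 RPKM.

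EGR1 encodes a zinc finger factor that ERK signalling is known to induce. EGR1 (ENSG00000120738.6, chromosome 5) had 169.8 and 161.8 RPKM with guide 1, 154.3 and 156.4 RPKM with guide 2, 140.4 and 142.3 RPKM with the non-targeting guide, and 86.2 and 84.1 RPKM with no guide. Every e3 library lay above every control library, and the non-targeting libraries lay above those with no guide. Guide 1 exceeded guide 2 by less than the spread within guide 1.

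ATF3, a stress-induced bZIP factor that pairs with JUN proteins and often represses, was the lowest of the 10. Its mean level stood at percentile 31.0 of the tested genes, FOS at 76.4 and the others between 91.4 and 98.2. ATF3 (ENSG00000162772.12, chromosome 1) had 4.93 and 5.22 RPKM with guide 1, 6.16 and 6.35 RPKM with guide 2, 5.295 and 2.63 RPKM with the non-targeting guide, and 1.92 and 1.54 RPKM with no guide. The non-targeting libraries differed from each other, at 99 and 50 reads, with exact Poisson 95% intervals of 4.30 to 6.45 and 1.95 to 3.46 RPKM that cover counting error only. The first of them lay just above both guide 1 libraries and the second below them, nearer to no guide.

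IER2 and IER3 are rapid response genes. IER2 encodes a small nuclear protein and IER3 one that modulates cell survival and is a known target of NF-kB. IER2 (ENSG00000160888.5, chromosome 19) had 160.8 and 157.4 RPKM with guide 1, 156.9 and 143.6 RPKM with guide 2, 152.1 and 148.9 RPKM with the non-targeting guide, and 118.2 and 124.6 RPKM with no guide. IER3 (ENSG00000137331.10, chromosome 6) had 195.6 and 202.9 RPKM with guide 1, 227.2 and 214.3 RPKM with guide 2, 226.7 and 221.6 RPKM with the non-targeting guide, and 73.1 and 83.5 RPKM with no guide. For both genes guide 2 overlapped the non-targeting guide, and the no-guide libraries lay far below the rest. The non-targeting mean of IER3 was 2.86 times that of no guide, the widest such ratio among the 10 genes. GENCODE 29 places an antisense gene over IER2, over IER3 and over FOSL2. The one over FOSL2, FLJ31356, had at most 0.630 RPKM, and those over IER2 and IER3 were not analysed here.

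Set against the non-targeting guide alone, the e3 libraries had higher JUN and FOSL2 and lower FOSL1, and the other 7 genes did not pass. JUN was higher by 0.40 ± 0.07 on the log2(RPKM + 1) scale (SE; limma, adjusted p = 0.0213). FOSL2 was higher by 0.32 ± 0.05 (limma, adjusted p = 0.0161), and FOSL1 fell by 0.31 ± 0.04 (limma, adjusted p = 0.0116). Genes with an adjusted p under 0.05 count as called, with p adjusted over all 13979 genes, of which 6.84% were called in this comparison, 3.3% higher and 3.54% lower. EGR1 did not pass, though all 4 e3 libraries were above both others (log2 difference 0.18, 95% interval 0.06 to 0.30, limma, adjusted p = 0.0869). These 3 called genes and EGR1 were the ones whose libraries did not overlap, against 32.3% of all genes. For the rest the interval of the log2 difference was -0.11 to 0.11 for JUNB, -0.12 to 0.51 for FOS, -0.03 to 0.98 for ATF3 and -0.24 to 0.05 for IER3. With either non-targeting library left out, none of the 3 calls held, with adjusted p between 0.0933 and 0.156, while 6 and 15 genes of the whole table were still called. JUN also lost its call without replicate 1 of guide 2 (adjusted p = 0.0578).

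Against no guide, 9 of the 10 genes were called with the e3 guides, 8 higher and FOS lower, where 16.7% of all genes were called, 8.68% higher and 8.03% lower. The 10 genes were chosen with earlier results of these data known. Of them 9 had 226 to 4139 reads a library, while the median over all tested genes and libraries was 122. In this and the other comparisons, the shares over all genes are thus not of genes with like read numbers. JUN was higher by 1.44 ± 0.08, IER3 by 1.41 ± 0.08 and ATF3 by 1.29 ± 0.15 on the log2 scale (limma, adjusted p = 2.15e-05, 2.59e-05 and 0.00116). EGR1 was higher by 0.91, FOSL2 by 0.82, JUNB by 0.53, IER2 by 0.35 and FOSL1 by 0.20. FOS fell by 0.73 ± 0.13 (limma, adjusted p = 0.00807). JUND did not pass (log2 difference 0.31, limma, adjusted p = 0.0676). FOS and FOSL1 lost their calls without either no-guide library (adjusted p 0.0597 to 0.12), and IER2 without the first (0.0722).

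The controls were also set against each other, although neither has a guide to e3. In the non-targeting libraries 7 of the 10 genes were higher than with no guide and FOS was lower, where 12.4% of all genes were called, 6.55% higher and 5.81% lower. IER3 was higher by 1.51 ± 0.07, JUN by 1.03 ± 0.05 and EGR1 by 0.72 ± 0.04 on the log2 scale (limma, adjusted p = 9.99e-06, 2.43e-05 and 6.12e-05). JUNB was higher by 0.53, FOSL1 by 0.51, FOSL2 by 0.50 and IER2 by 0.31, and FOS fell by 0.92 ± 0.09 (limma, adjusted p = 0.000789). JUND (0.18, limma, adjusted p = 0.189) and ATF3 (0.81, limma, adjusted p = 0.0743) did not pass. ATF3 passed without replicate 2 of the non-targeting guide, at 1.21 (limma, adjusted p = 0.0147), and its difference was 0.41 without replicate 1 (adjusted p = 0.272). IER2 lost its call without the first library of either control (adjusted p 0.0588 and 0.0647). Values of both comparisons rest on the same no-guide libraries, so they are not independent of one another. Of the markers that carried the leukocyte sum, CD68 had mean levels of 30.7 and 29.9 RPKM with guides 1 and 2, 22.7 RPKM with the non-targeting guide and 13.0 RPKM with no guide. CD79A had 23.7 and 15.7 RPKM with guides 1 and 2, 13.5 RPKM with the non-targeting guide and 25.9 RPKM with no guide, the other direction between the controls. Their part in these results was not tested.

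**Figure D2:**
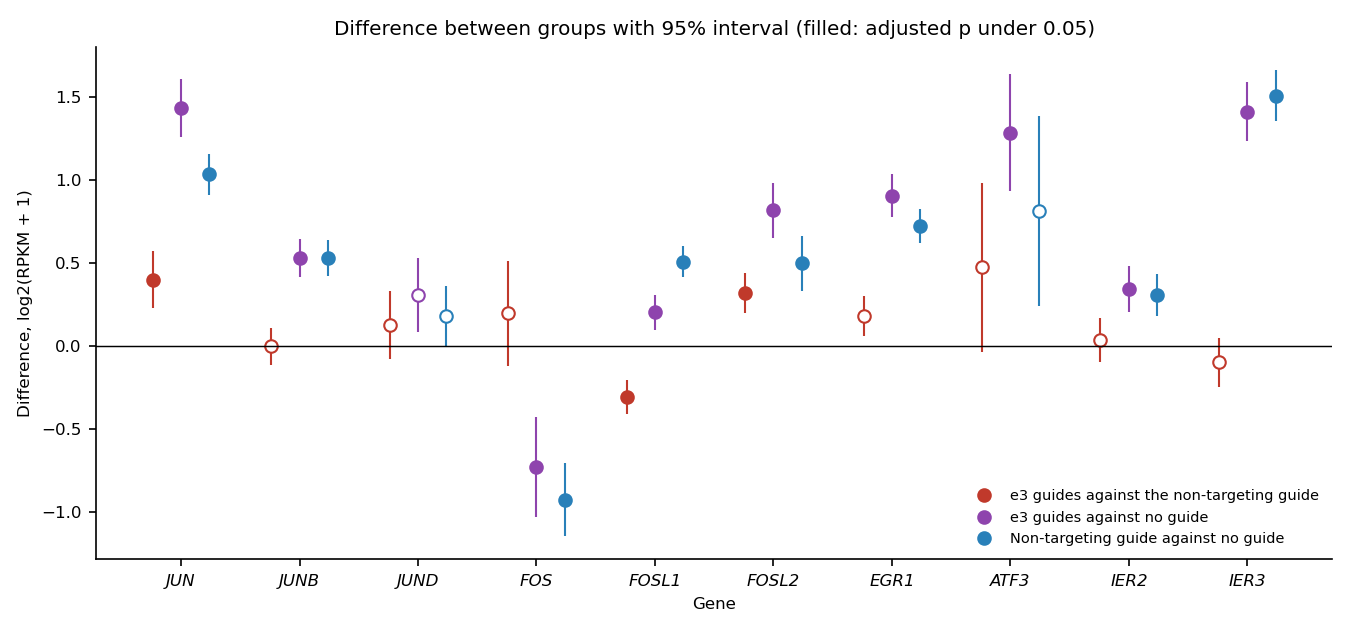
Difference in log2(RPKM + 1) for each of the 10 genes (horizontal axis) in 3 comparisons, with 95% intervals; filled points passed at an adjusted p under 0.05. Against the non-targeting guide JUN (0.40), FOSL2 (0.32) and FOSL1 (-0.31) are filled, and in both comparisons with no guide FOS lies below 0, at -0.73 for the e3 guides and -0.92 for the non-targeting guide.

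With both controls pooled, the difference between the controls enters the error, and FOSL2 alone was called (log2 difference 0.57 ± 0.13, limma, adjusted p = 0.0379), where 5.2% of all genes were called and 2.63% were higher. JUN was higher by 0.92 ± 0.24 (limma, adjusted p = 0.0607), ATF3 by 0.88 (0.0773) and EGR1 by 0.54 (0.102), and none of these passed. JUN, FOSL2 and EGR1 were higher in all 4 e3 libraries than in all 4 control libraries, which held for 7.58% of all genes. FOSL2 passed in 2 of the 8 fits that left out a library, those without a non-targeting library. Its adjusted p was otherwise 0.0519 to 0.109, and it was 0.0732 with an estimated correlation within groups and 0.414 with group means as samples.

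Taken 1 guide at a time against the pooled controls, guide 1 had 7 genes higher and guide 2 had 6 higher and FOS lower. This fit keeps the 4 groups apart, so the difference between the controls does not enter its error as it does in the pooled fit, and the counts of the fits cannot be set side by side. For JUNB and IER3 with either guide, and for FOS with guide 2, the libraries overlapped those of the non-targeting guide or lay below them, and only the no-guide libraries were apart in the direction of the call. Over all genes 8.99% were called with guide 1, 4.96% of all genes being higher, and 14.5% with guide 2, 6.85% higher and 7.62% lower. JUN was higher by 0.83 with guide 1 and 1.00 with guide 2, FOSL2 by 0.53 and 0.60, EGR1 by 0.59 and 0.50, IER3 by 0.58 and 0.73, and JUNB by 0.26 and 0.27. JUND (0.32) and IER2 (0.23) were called with guide 1 and not with guide 2, and ATF3 (1.01) and FOS (-0.44) with guide 2 and not with guide 1. For each of these 4 genes, leaving out either library of the guide ended the call, and JUNB lost its call with guide 1 without replicate 1 of that guide (0.20, limma, adjusted p = 0.0667). Set against each other, guide 2 and guide 1 differed at none of the 10 genes by limma's adjusted p, where 0.0286% of all genes were called. Of the 10, 3 had an unadjusted p under 0.05 (limma), and the share of all genes at that threshold was not counted. The log2 differences of these 3 genes, guide 2 minus guide 1, were 0.17 for JUN (95% interval 0.05 to 0.30), -0.22 for JUND (-0.40 to -0.03) and -0.34 for FOS (-0.56 to -0.12). Their intervals leave out 0 but are not adjusted, and their adjusted p was 0.338, 0.399 and 0.293 (limma). For ATF3 the interval ran from -0.32 to 0.83.

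The subunits were next taken as shares of the summed RPKM of each family. FOSL1 made up 55.5% of the FOS family with guide 1 and 56.2% with guide 2, against 65.7% with the non-targeting guide and 57.8% with no guide. FOSL2 made up 33.1% and 34.2% with the e3 guides, against 25.6% with the non-targeting guide and 22.7% with no guide. FOS and FOSB together fell short of FOSL2 in every library. Their shares were highest with no guide, at 13.0% for FOS and 6.52% for FOSB, against 7.35% and 4.002% with guide 1, 5.62% and 3.96% with guide 2, and 5.298% and 3.44% with the non-targeting guide. The sum of the family was 287.4 and 291.9 RPKM with guides 1 and 2, 304.9 RPKM with the non-targeting guide and 242.6 RPKM with no guide.

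JUN made up 33.0% of the JUN family with guide 1 and 36.4% with guide 2, against 29.04% with the non-targeting guide and 21.3% with no guide. JUNB was the largest share throughout, at 50.2% and 49.6% with the e3 guides, 55.4% with the non-targeting guide and 57.9% with no guide. JUND made up 16.8% and 14.1% with the e3 guides, 15.6% with the non-targeting guide and 20.8% with no guide. The family summed to 374.6 and 383.9 RPKM with guides 1 and 2, 341.7 RPKM with the non-targeting guide and 225.5 RPKM with no guide. Shares of messenger RNA are not shares of protein, and no test was made of them.

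**Figure D3:**
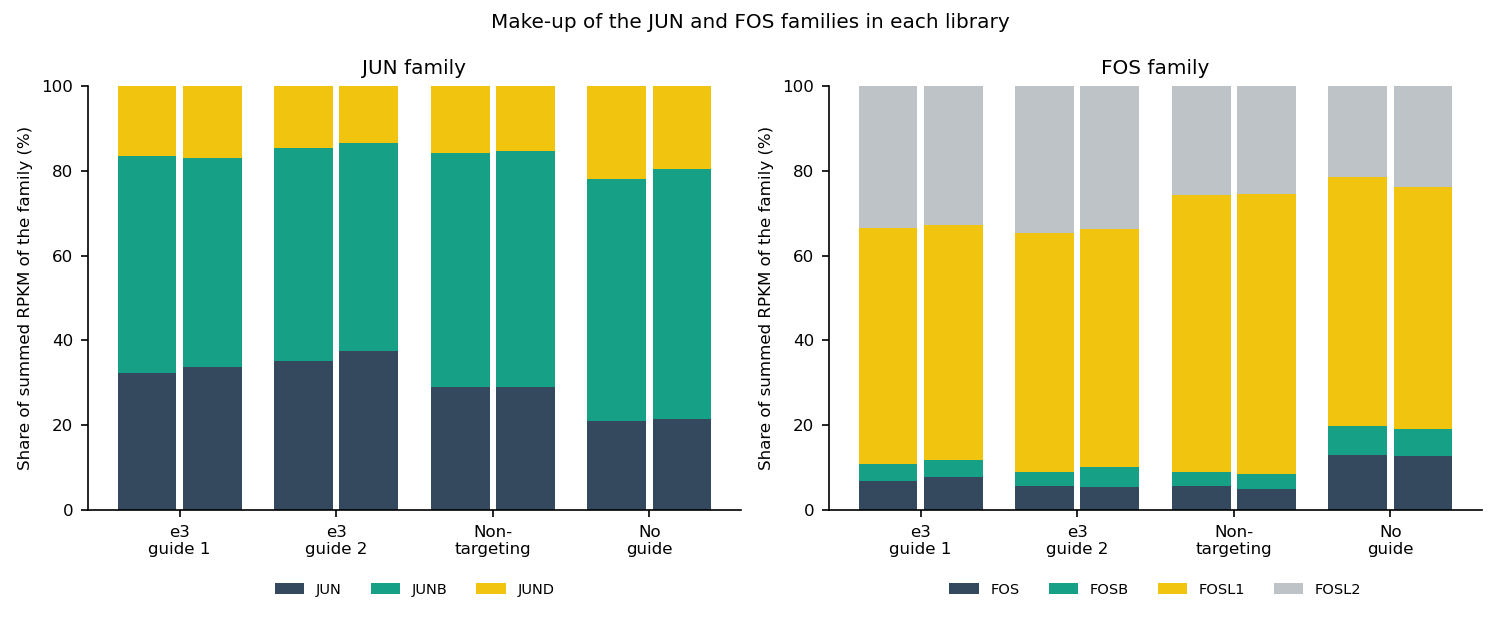
Share of each subunit gene in the summed RPKM of the JUN family (left) and the FOS family (right), in percent, 1 bar for each library. JUN takes 33.0% and 36.4% on average with the e3 guides, and FOSL2 takes 33.1% and 34.2%, both more than in either control.

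Other immediate early genes were looked at as a list of 34, of which 28 were tested. With the e3 guides 8 were higher than with the non-targeting guide and 1 lower, while 19 did not pass. Of the list 32.1% was called, beside 6.84% of all genes (3.3% higher and 3.54% lower). The list's median log2 difference was 0.24, beside 0.00 over all genes. The list was drawn up with earlier results in view. Called genes included some that feed back on signalling or RNA decay. DUSP1, a phosphatase that switches off JNK, p38 and ERK, had 52.8 and 47.5 RPKM with guide 1, 55.6 and 50.02 RPKM with guide 2, 30.9 and 35.6 RPKM with the non-targeting guide, and 30.4 and 31.5 RPKM with no guide (0.62 against the non-targeting guide, limma, adjusted p = 0.00936). ZFP36L1, which promotes decay of AU-rich messengers, had 44.7 and 43.8 RPKM with guide 1, 58.3 and 56.7 RPKM with guide 2, 30.05 and 30.07 RPKM with the non-targeting guide, and 32.3 and 32.2 RPKM with no guide (0.73, limma, adjusted p = 0.0183). For both genes the controls lay close to each other and below every e3 library. CYR61, a secreted matricellular gene, was higher by 0.65 (limma, adjusted p = 0.0103), and MYC was the gene that was lower. Leaving out either non-targeting library, none of the list was called higher, and 1 was called lower without replicate 2 and 0 without replicate 1. Without replicate 1 or 2 of guide 2, 4 or 3 were higher.

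Between the controls 10 genes of that list were higher with the non-targeting guide than with no guide, 2 were lower and 16 did not pass. Of the list 42.9% was called, beside 12.4% of all genes, and its median was 0.18 beside -0.01 over all genes. TNFAIP3, an NF-kB feedback inhibitor, had 29.3 and 28.4 RPKM with guide 1, 33.0 RPKM in each guide 2 library, 26.1 and 25.9 RPKM with the non-targeting guide, and 6.64 and 7.34 RPKM with no guide (1.76 between the controls, limma, adjusted p = 1.1e-05). GADD45B, a stress-response activator of p38 signalling, ran the other way, with 33.9 and 40.7 RPKM with guide 1, 32.7 and 34.6 RPKM with guide 2, 24.1 and 25.8 RPKM with the non-targeting guide, and 46.6 and 46.9 RPKM with no guide (-0.88, limma, adjusted p = 0.000991). GADD45B with the e3 guides was higher than with the non-targeting guide (0.49, limma, adjusted p = 0.0266) and lower than with no guide (-0.39, limma, adjusted p = 0.0242). KLF10 was higher by 0.58 and CYR61 by 0.39 between the controls. The number of higher genes was 6 without replicate 2 of either control.

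**Figure D4:**
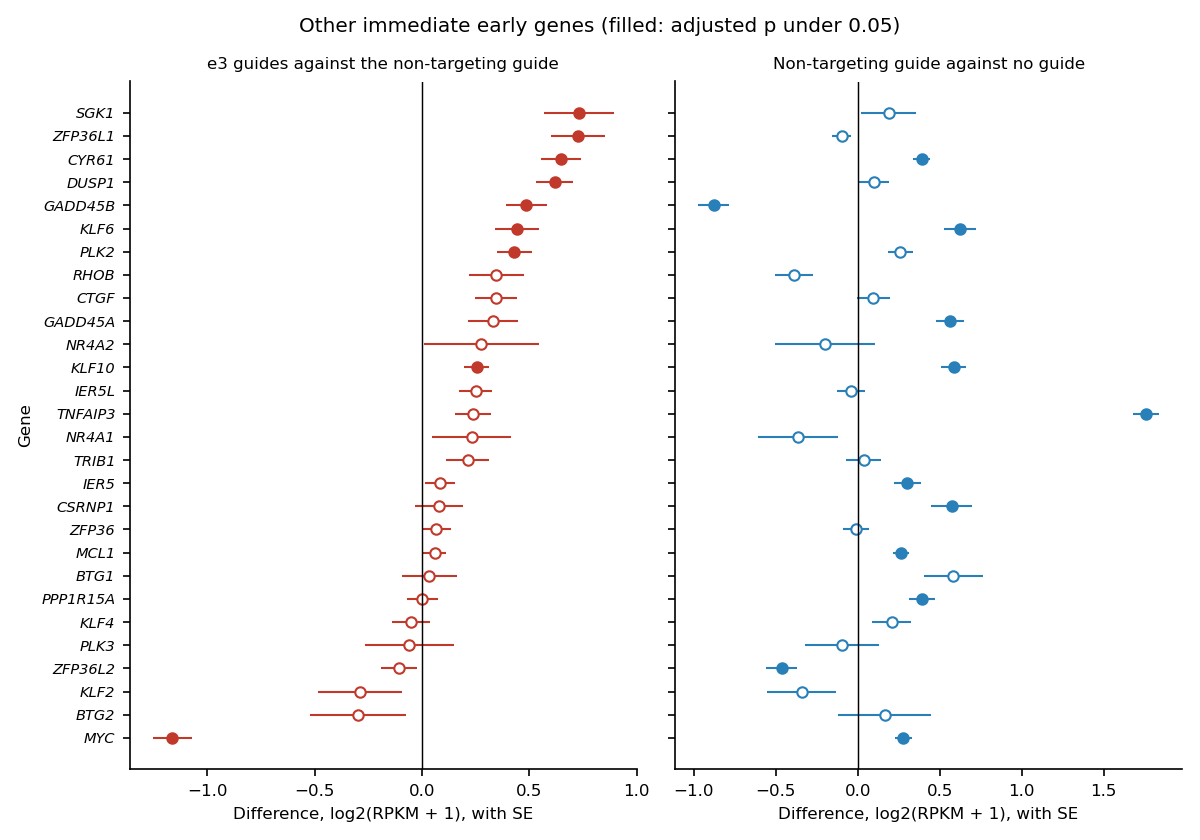
Difference in log2(RPKM + 1), with SE, for the 28 other immediate early genes tested, for e3 against non-targeting libraries (left) and the non-targeting guide against no guide (right); filled points passed at an adjusted p under 0.05. On the left 8 genes are filled above 0 and MYC below, and on the right TNFAIP3 stands farthest above 0, at 1.76.

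Genes further up and down the pathway were counted from 6 more lists. Among 15 tested bZIP factors that pair with AP-1 proteins or resemble them, none was called between the e3 and the non-targeting libraries (limma), where MAFG had the smallest p (0.50, adjusted p = 0.15). Between the controls FOSB was lower (-0.55, limma, adjusted p = 0.0441) and ATF5 higher (0.52, limma, adjusted p = 0.0496) with the non-targeting guide. They made up 13.3% of the list, beside 12.4% of all genes called. Of 15 genes that report or restrain ERK output, only DUSP4, a nuclear ERK phosphatase, was called between the e3 and the non-targeting libraries. It was higher with the e3 guides (0.50, limma, adjusted p = 0.0279). This was 6.67% of the list beside 6.84% of all genes. Between the controls 4 of the 15 ERK genes were lower with the non-targeting guide, namely PHLDA1 (-0.28), CCND1 (-0.44), SPRED1 (-0.53) and SPRY2 (-0.61). They made up 26.7% of the list, beside 12.4% of all genes called.

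Of 5 tested ligands of the EGF receptor family, none was called between the e3 guides and the non-targeting guide (limma), with TGFA at 0.35 (adjusted p = 0.117). Between the controls HBEGF (0.98) and TGFA (0.33) were higher and EREG (-0.65) was lower with the non-targeting guide. They made up 60% of the tested list, beside 12.4% of all genes called. Of 33 tested kinases and factors upstream of AP-1, RPS6KA3, the kinase RSK2, was higher with the e3 guides than with the non-targeting guide (0.37, limma, adjusted p = 0.0446), or 3.03% of the list beside 6.84% of all genes. Against no guide RPS6KA3 was lower with the e3 guides (-0.56, limma, adjusted p = 0.0043). With the non-targeting guide 5 were lower than with no guide, among them RPS6KA3 (-0.93), MAP3K5 (-0.54) and MAPK13 (-0.39), or 15.2% of the list beside 12.4% of all genes. Of 7 regulators of AP-1 or EGR1 proteins, none was called between the e3 guides and the non-targeting guide (limma). Between the controls NAB1, a corepressor that binds EGR1, was higher by 0.57 and ITCH, a ubiquitin ligase for JUN proteins, fell by 0.53. They made up 28.6% of the list, beside 12.4% of all genes called.

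Genes known as AP-1 targets in other systems numbered 22, and 16 were tested. With the e3 guides CD44, a hyaluronan receptor (0.53, limma, adjusted p = 0.0199), and the chemokine gene IL8 (0.56, limma, adjusted p = 0.038) were higher than with the non-targeting guide. HMGA1, a chromatin architecture gene, fell by 0.25 (limma, adjusted p = 0.0125), and 13 did not pass, with a median of 0.24 beside 0.00 over all genes. Of the tested list 18.75% was called, beside 6.84% of all genes. None of these calls held without either non-targeting library. Against no guide, HMGA1 did not pass with the e3 guides (-0.05, limma, adjusted p = 0.465). CD44 and IL8 were higher by 1.32 and 4.71 (limma, adjusted p = 0.000133 and 2.72e-05), with IL8 at 1.06 and 0 RPKM in the no-guide libraries. Between the controls 10 were higher with the non-targeting guide than with no guide and 2 were lower, or 75% of the tested list beside 12.4% of all genes. The median was 0.91 beside -0.01 over all genes, and 10 were higher with each library left out in turn. MMP9, a gelatin-cleaving protease, had 26.3 and 22.7 RPKM with the non-targeting guide and 0.2499 and 0.371 RPKM with no guide. VIM, an intermediate filament of mesenchymal cells, had 39.4 and 41.0 RPKM with the non-targeting guide and 6.31 and 6.97 RPKM with no guide. CSF2, a cytokine gene, had 80.4 and 62.3 RPKM with the non-targeting guide, while one no-guide library had 0.605 RPKM and the other is listed at 0. PLAU, the urokinase gene, had 397 and 393 RPKM with the non-targeting guide and 208 and 191 RPKM with no guide. The list was drawn up with earlier results in view, and its genes answer to other factors as well.

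Profiles over the 8 libraries were compared for the 5 genes that spanned at least 1 on the log2(RPKM + 1) scale, against 9034 genes averaging 5 RPKM or more. The measure was the root mean square difference of log2 values after each gene was centred on its own mean. Nearest to JUN were TNC (0.0763) and PLAU (0.0786), nearest to EGR1 were HIF1A (0.0503) and HLA-G (0.0569), and nearest to IER3 were NFKBIA (0.105) and LIF (0.107). FOS was nearest to ESYT2 (0.0842) and RP11-661A12.9 (0.0888). HLA-G shares reads with near-identical HLA genes, so its values are uncertain. ATF3 was nearest to STOML1 (0.137) and the antisense gene P4HA2-AS1 (0.172). Those genes also differed between the non-targeting libraries, at 7.47 and 4.44 RPKM for STOML1 and 13.5 and 7.26 RPKM for P4HA2-AS1. Among the 10 genes themselves the closest pairs were JUND and IER2 (0.0968), JUNB and IER2 (0.103) and FOSL2 and EGR1 (0.118), and the farthest was FOS and IER3 (0.993). All 8 points of a profile share 4 groups, so likeness over them is a description.

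**Figure D5:**
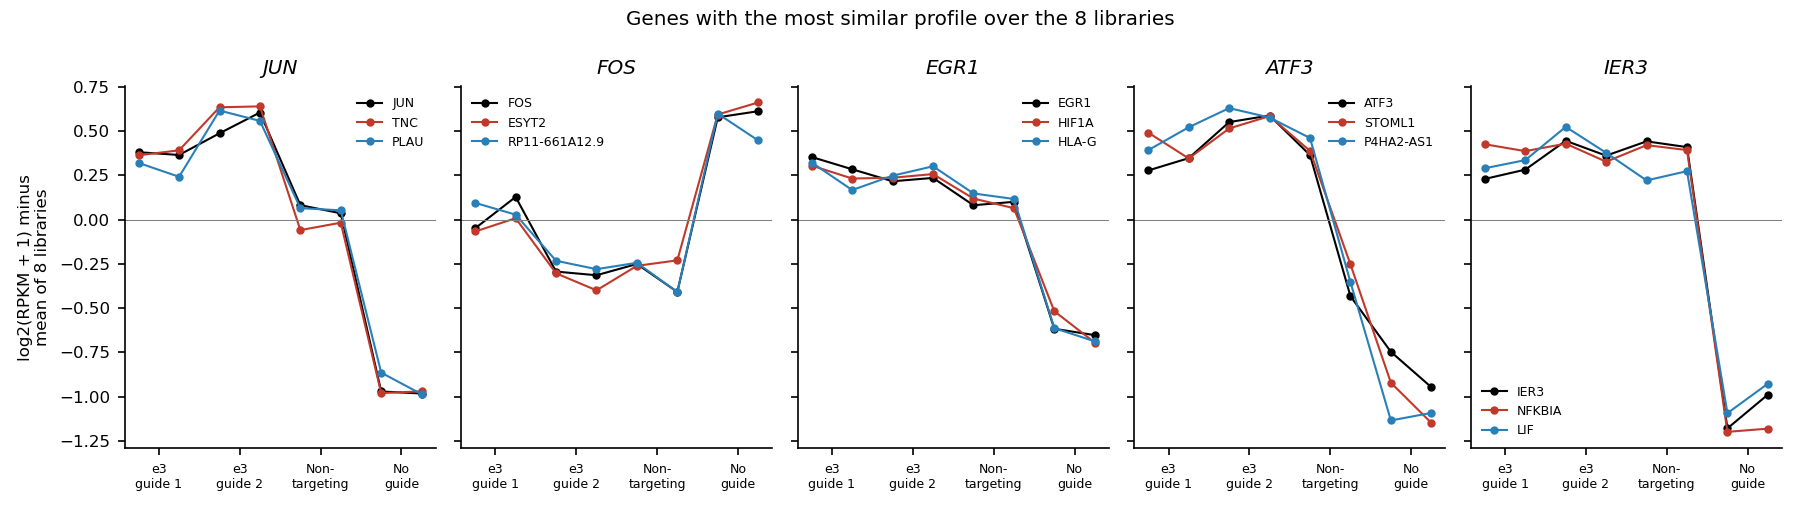
Profiles of JUN, FOS, EGR1, ATF3 and IER3 (black) and of the 2 genes nearest to each (colours), as log2(RPKM + 1) minus the gene's mean over the 8 libraries, by group. The no-guide libraries are lowest for JUN, EGR1, ATF3 and IER3 and highest for FOS, and the ATF3 panel shows the second non-targeting library below the first for all 3 genes.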

How the data were processed

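The deposited table gives RPKM per gene and library, per the file headers. Per the submitters' processing notes, Cufflinks and the build hg19 were used, with no role or version named. The read counting, strand setting and annotation release are not given in the sources used here. Poly(A) RNA was selected, per the labels' protocols.

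Tests used limma 3.58.1 in R 4.3.3 on log2(RPKM + 1), a pseudocount of 1 that understates changes of low genes, two-sided, with an empirical Bayes variance trend. Genes averaging under 1 RPKM were left out. Benjamini-Hochberg adjustment ran over the 13979 genes tested. Each e3 comparison used 2 groups (8 or 6 libraries). Single guides, the guides and the controls among themselves used 4 groups. Errors are SD over libraries or SE of the fit, and intervals on levels cover counting error only. The fit was tested on simulated data.

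All 10 genes are named, with up to 4 of each list by smallest p, of which a few are not reported here though they count in every total. The genes and lists were chosen with earlier results of these data known. Symbols are those of the table, and GENCODE 29 (GRCh38) gave chromosomes and overlaps only. The alternatives were a pseudocount of 0.1, no filter, a minimum mean of 5 RPKM, median-ratio scaling, a replicate block, an estimated correlation within groups, group means as samples and each library left out.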

Additional observations from a re-analysis of the deposited data

How the results depend on the processing

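Of 903 values recomputed for single genes, 846 kept their direction and their side of the threshold, 43 lost their call, 8 gained one and 6 changed sign. The sign changes were of values near 0 that were called in no fit. With 1 library left out, FOSL1 against all controls ran from -0.14 to 0.0448 (-0.05 with all libraries) and was above 0 without either non-targeting library. JUNB in e3 against non-targeting libraries was -0.00074 with all libraries, 0.00288 with median-ratio scaling and -0.0175 to 0.0219 with 1 library left out. JUNB in guide 2 against guide 1 ran from -0.0415 to 0.0768. In each case the cause was not tested.

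Against all controls the number of higher genes among the 10 was 1. It was 0 with no filter, with the replicate block, with an estimated correlation and with group means, 2 with a minimum mean of 5 RPKM, and 0 to 3 with 1 library left out. Against the non-targeting guide it was 1 with no filter, and with 1 library left out 0 to 2 were higher and 0 to 1 lower. Against no guide the number lower was 0 with no filter and 0 to 1 with 1 library left out. Guide 1 had 4 to 7 higher and guide 2 0 to 1 lower. No filter means that more genes share the adjustment, and a left-out library leaves fewer samples. With the replicate block the adjusted p of FOSL2 against all controls was 0.0651 (limma). Deviations of same-numbered libraries correlated by -0.0223 to 0.0138 over all tested genes. That measure could miss a shared source acting on some genes only, so whether the numbers pair the libraries stays undetermined. ATF3 was not tested at a minimum mean of 5 RPKM. At 26 to 142 reads a library its values carry the widest counting error of the 10. Recounting the lists of other immediate early genes and AP-1 targets under each setting was added after the data had been seen. In e3 against non-targeting libraries, 1 other immediate early gene was higher with no filter, where 8 were in the main fit. Of the AP-1 targets 2 were higher in the main fit, 0 with no filter, 1 with the replicate block and 4 with a minimum mean of 5 RPKM.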
